A study of Mus musculus with 36 samples.

Results

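Circular RNAs (circRNAs) from 9 genes that encode regulators of regional and layer identity in the forebrain were compared between the hippocampus and the frontal cortex of the mouse. The genes *Satb1*, *Tle4*, *Foxp1*, *Bcl11a*, *Bcl11b*, *Tcf4*, *Nfia*, *Nfib* and *Zbtb20* were listed by name, and a circRNA was assigned to one of them when both of its ends lay inside the gene on its strand. All 9 genes held at least 1 circRNA, out of 6520 host genes in the series, and together they held 94 of the 29473 circRNAs inside genes.

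The series profiled total RNA after depletion of ribosomal RNA from whole hippocampi and frontal lobes of perfused male C57BL/6 mice (C57BL6/N in the study's methods) aged 9 to 10 weeks. The labels give no mutation or treatment, and the mice lived with lights on from 6 AM to 6 PM. Tissue was taken in the light phase at zeitgeber times (hours after lights on) ZT1, ZT5 and ZT9, and in the dark phase at ZT13, ZT17 and ZT21. Each of the 12 groups of tissue and time point had 3 replicates, 36 samples in all, and samples of different time points came from different animals.

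The values are counts of circular reads, that is, reads across the head-to-tail junction of a circle. The total over all circRNAs listed was between 6754 and 73252 per sample in the hippocampus, with a median of 21923.5. It was between 8107 and 34803 in the frontal cortex, with a median of 20301. The smallest count above 0 was 2, so a 0 may stand for 1 read. Levels are given as circular reads per 10000, after edgeR's TMM scaling. On this scale 1 read was worth between 0.180 and 1.56 in hippocampus samples and between 0.386 and 1.30 in frontal cortex samples.

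The 9 genes had 2278 circular reads in the 18 hippocampus samples and 1234 in the 18 frontal cortex samples. Their share of all circular reads was 0.355% at the lowest, 0.525% at the median and 0.735% at the highest in the hippocampus. In the frontal cortex it was 0.233%, 0.337% and 0.479%. The ranges of the tissues overlapped, and the median of the hippocampus lay above the highest frontal cortex sample.

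The depth of 3 libraries was looked at further. Hippocampus ZT1 replicate 3 had the most reads of all, the 73252 named above. Hippocampus ZT13 replicate 1 and frontal cortex ZT9 replicate 3 had the fewest of their tissues, 6754 and 8107. Of the 8107, 27 came from the 9 genes. Those 27 reads were all from *Foxp1* and *Tle4*, so this library was at 0 for the other members. Without these 3 libraries the log2 difference, hippocampus minus frontal cortex, was 1.82 for *Zbtb20* (1.85 with them), 1.28 for *Tcf4* (1.35), 1.07 for *Bcl11b* (1.14) and 0.65 for *Satb1* (0.68). It was 0.24 for *Nfib* (0.31) and 0.20 for *Tle4* (0.10). For *Foxp1* it was −0.42 without them (adjusted p-value = 0.0680) and −0.58 with them (adjusted p-value = 0.0150), so the *Foxp1* call was lost without these 3 libraries.

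Neurons and glia of the forebrain take on the identity of their region and layer through DNA-binding factors that switch on the programme of a fate and shut off those of its neighbours. *Zbtb20* is needed for pyramidal neurons of the hippocampus, *Bcl11b* and *Tle4* mark deep-layer projection neurons of the cortex, and the nuclear factor I proteins act in both astrocytes and neurons. A circRNA arises from such a gene when the spliceosome joins the end of an exon back to the start of the same or an earlier exon.

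Of the 9 genes, 7 passed the filter on low counts and were tested for a difference between the tissues, with *Bcl11a* and *Nfia* below it. Higher circular reads in the hippocampus at an adjusted p-value under 0.05 were called for 4 of them, *Zbtb20*, *Tcf4*, *Bcl11b* and *Satb1*, and higher reads in the frontal cortex for 1, *Foxp1*. Among all 790 host genes tested, 31.6% were called, 16.3% higher in the hippocampus, and 15.3% higher in the frontal cortex. *Nfib* and *Tle4* were not called. Summed over the circRNAs of each gene, a difference between the regions was thus called for 5 of the 7 genes tested. Of these, *Foxp1* lost its call under 3 alternatives (without the 3 libraries above, without a filter on low counts, and with circRNAs listed in both tables) and without frontal cortex ZT1 replicate 1 (log2 −0.50, adjusted p-value = 0.0507). *Tcf4* lost its call with circRNAs listed in both tables (adjusted p-value = 0.0865). In bulk tissue, fewer cells of a type and less RNA per cell cannot be told apart.

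**Figure D1:**
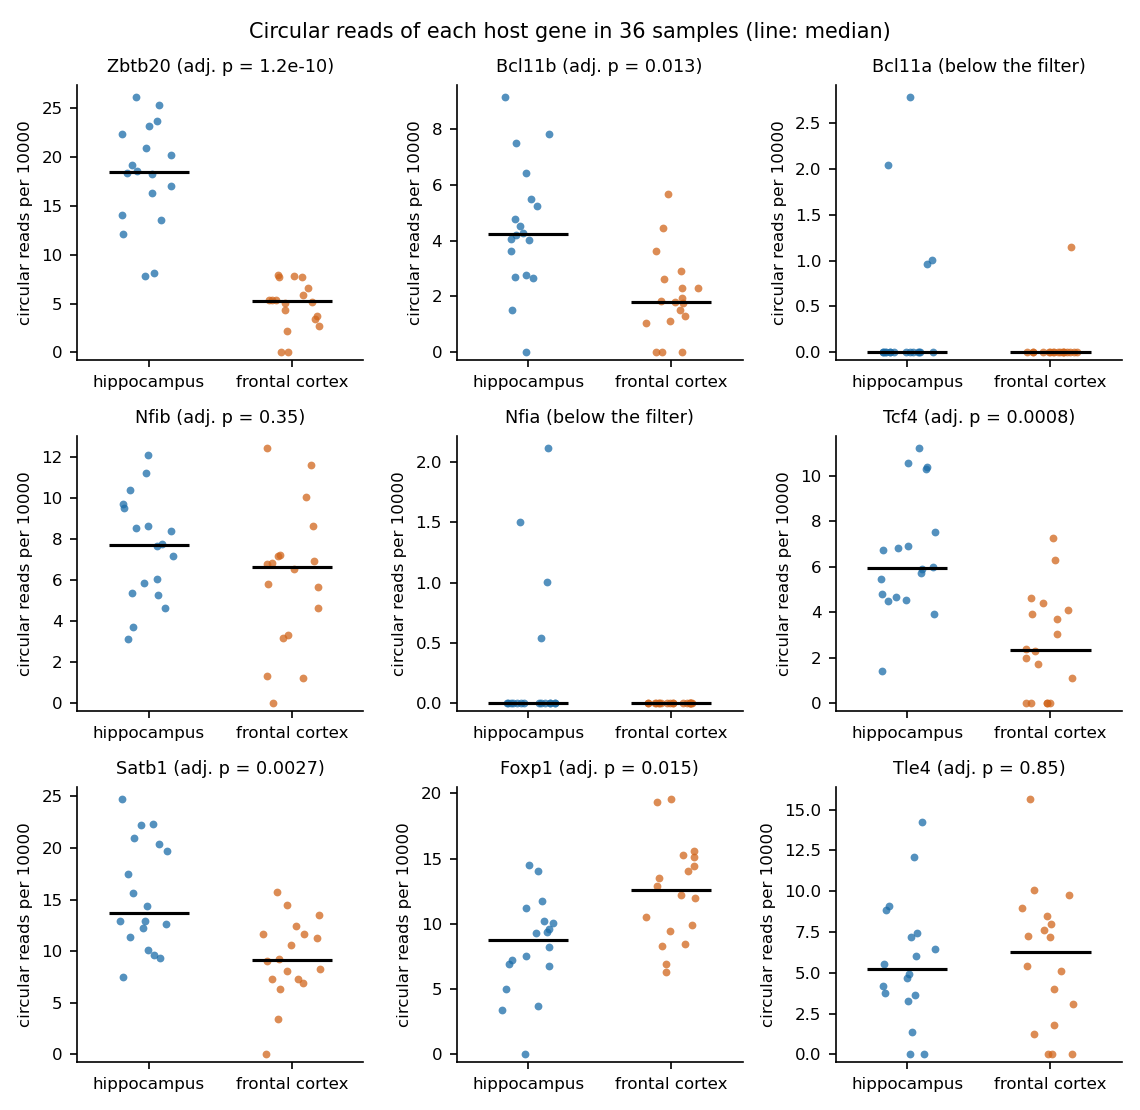
Circular reads per 10000 of each host gene in the 18 hippocampus and 18 frontal cortex samples, with 1 point per sample and a line at the median. For *Zbtb20*, 17 of 18 hippocampus samples lie above the highest frontal cortex sample, while the tissues overlap more widely in the other genes.

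*Zbtb20* encodes a zinc finger repressor of the BTB family that specifies pyramidal neurons of the hippocampus. Its circular reads per 10000 were 7.80 at the lowest, 18.5 at the median and 26.1 at the highest over the 18 hippocampus samples. In the 18 frontal cortex samples they were 0, 5.24 and 7.95. Hippocampus ZT13 replicate 1, the library with the fewest reads, was the lowest hippocampus sample with 5 reads of *Zbtb20*, and it was the only one not above every frontal cortex sample. The mean was 18.1 ± 5.37 (SD, n = 18) in the hippocampus against 4.79 ± 2.45 in the frontal cortex, a 3.61-fold difference (log2 1.85, SE 0.19, adjusted p-value = 1.24e-10). The mean was higher in the hippocampus at 6 of 6 time points.

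Over the 12 groups, *Zbtb20* was highest in the hippocampus at ZT17, with a mean of 25.1 ± 1.24 (SD, n = 3) and values of 23.7, 26.1 and 25.4. Next came hippocampus ZT5 with 20.2 ± 3.08, ZT13 with 17.03 ± 8.03, ZT9 with 16.6 ± 3.88, ZT1 with 16.1 ± 2.52 and ZT21 with 13.5 ± 5.11. All 6 frontal cortex groups followed, from 5.96 ± 3.24 at ZT1 to 3.77 ± 3.28 at ZT5. Each of these neighbours differed by less than the larger of their SDs, except where ZT17 met ZT5 in the hippocampus and where the lowest hippocampus group met the highest frontal cortex group.

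*Zbtb20* held 12 circRNAs. Most of its reads, 538 of 628 in the hippocampus against 137 of 143 in the frontal cortex, came from a circle of exons 2 to 5 (chr16:43569681-43577748 on the plus strand, GRCm38), which has 511 bases after splicing, 199 of them coding. This circle reached 7.80, 14.4 and 26.1 circular reads per 10000 in the hippocampus against 0, 4.69 and 7.95 in the frontal cortex. As for the gene, 17 of 18 hippocampus samples lay above the highest frontal cortex sample (log2 1.73, SE 0.19, adjusted p-value = 7.81e-09). Of all 710 circRNAs tested singly, 30.6% were called, 16.5% higher in the hippocampus, and 14.1% higher in the frontal cortex. Another circle ended at the same exon 5 and began at a position that is not the start of an annotated exon of the gene (chr16:43561713-43577748). It had 47 reads in 10 hippocampus samples and 4 reads in 2 frontal cortex samples.

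Farther upstream in *Zbtb20*, in exons that carry no coding sequence, 4 circles shared the splice donor at chr16 position 43302615. They were singled out after their values were seen and were not tested. Together they had 30 reads in 8 of 18 hippocampus samples and 2 reads in 1 of 18 frontal cortex samples. Relative to the total reads this is a ratio of 12.4, with an exact 95% interval of 3.15 to 107, and intervals of this kind cover counting error only. The 2 frontal cortex reads fell on the circle that began at position 43193465, and the circles that began at 43146897, 43232759 and 43282971 were listed in the hippocampus alone.

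*Bcl11b* and *Bcl11a* encode related zinc finger proteins, also known as Ctip2 and Ctip1, which are subunits of the BAF chromatin remodelling complex and direct the fates of projection neurons. Circular reads per 10000 of *Bcl11b* were 0, 4.23 and 9.12 (lowest, median, highest) in the hippocampus against 0, 1.82 and 5.66 in the frontal cortex. The tissues overlapped, with 4 hippocampus samples above the highest frontal cortex sample and 16 of 18 above the frontal cortex median. The means were 4.48 ± 2.26 and 2.01 ± 1.49 (SD, n = 18 each), a 2.20-fold difference (log2 1.14, SE 0.36, adjusted p-value = 0.0132), and the hippocampus mean was higher at 6 of 6 time points. Group means ran from 5.98 ± 2.88 at ZT13 to 2.99 ± 2.60 at ZT9 in the hippocampus, and from 3.10 ± 2.22 at ZT13 to 1.15 ± 1.02 at ZT21 in the frontal cortex, and hippocampus ZT17 and ZT9 stood below frontal cortex ZT13. Neighbours in this order differed by less than the larger of their SDs.

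Both circles of *Bcl11b* consisted of exon 2 alone. The circle bounded by the annotated ends of the exon (chr12:107989465-107989830, minus strand, 366 bases, all coding) had 113 reads in the hippocampus against 47 in the frontal cortex. A circle whose end at position 107989827 lies inside the exon had 39 and 10. *Bcl11a* gave 1 circle, also of its exon 2 (chr11:24085321-24085650, plus strand, 330 bases, all coding). It had 12 reads in 4 hippocampus samples, with 3 in ZT9 replicate 1, 5 in ZT17 replicate 2 and 2 each in ZT21 replicates 2 and 3. In the frontal cortex it had 2 reads, in ZT17 replicate 3. The ratio was 4.97, with an exact 95% interval of 1.11 to 45.7, and the gene was below the filter on low counts.

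*Nfib* and *Nfia* encode nuclear factor I proteins, which drive the onset of astrocyte fate and the growth of the hippocampus. The level of *Nfib*, in circular reads per 10000, was 3.12, 7.71 and 12.1 in the hippocampus against 0, 6.66 and 12.4 in the frontal cortex. The tissues overlapped over nearly their whole range, and 11 of 18 hippocampus samples lay above the frontal cortex median. The difference was not called (log2 0.31, SE 0.24, adjusted p-value = 0.349), with the hippocampus mean higher at 5 of 6 time points. The group means lay between 3.92 ± 2.33, in the frontal cortex at ZT5, and 8.65 ± 3.42, in the hippocampus at ZT21.

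*Nfib* held 9 circRNAs, each bounded by exons of 1 transcript. The circle of exons 2 to 8 (chr4:82327729-82498769, minus strand, 1215 bases) had the most reads, 95 in the hippocampus against 75 in the frontal cortex. *Nfia* held 4 circRNAs with 12 reads in all, in hippocampus ZT1 replicate 2 (5 reads), ZT1 replicate 3 (3), ZT5 replicate 1 (2) and ZT21 replicate 2 (2). It was listed at 0 in the 18 frontal cortex samples and was below the filter on low counts. Its leading circle spanned exons 2 to 6 (chr4:97783082-98020954, plus strand, 919 bases) with 5 reads in 2 hippocampus samples.

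*Tcf4* encodes an E protein, a basic helix-loop-helix factor that pairs with proneural factors. Its level, in circular reads per 10000, was 1.44, 5.95 and 11.2 in the hippocampus against 0, 2.32 and 7.26 in the frontal cortex. *Tcf4* had reads in all 18 hippocampus samples and in 13 of 18 frontal cortex samples, 5 hippocampus samples lay above the highest frontal cortex sample, and 17 lay above its median. The means were 6.52 ± 2.63 and 2.60 ± 2.24 (SD, n = 18 each), a 2.55-fold difference (log2 1.35, SE 0.32, adjusted p-value = 8.02e-04), with the hippocampus mean higher at 6 of 6 time points. Without frontal cortex ZT9 replicate 1, the only library of its group with *Tcf4* reads, the log2 difference was 2.12. When only circRNAs listed in both tables were summed, it was 0.90 (adjusted p-value = 0.0865), and over all alternatives the adjusted p-value ranged from 1.72e-05 to 0.0865.

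By group, *Tcf4* was highest in the hippocampus at ZT17 (9.46 ± 1.67) and ZT5 (9.19 ± 2.80), which differed by less than either SD. The other 4 hippocampus groups had means between 4.24 ± 2.66 and 5.56 ± 1.49, and the frontal cortex groups ran from 4.58 ± 1.62 at ZT13 to 1.17 ± 1.18 at ZT1. Hippocampus ZT21 lay below frontal cortex ZT13 in this order.

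The 19 circRNAs of *Tcf4* were led by a circle with only 1 end at an annotated exon (chr18:69651243-69652472, plus strand), which had 63 reads in the hippocampus against 21 in the frontal cortex. At the 5′ end of the gene, 4 circles began at exon 2 (position 69347279) and ran to exon 3, 5, 6 or 8. This start was singled out after its values were seen and was not tested. The circles ending at exons 5, 6 and 8 had 58 reads in 13 of 18 hippocampus samples and were listed at 0 in the frontal cortex, whereas the circle ending at exon 3 had 3 reads in 1 frontal cortex sample and none in the hippocampus. The ratio over the 4 circles was 16.0, with an exact 95% interval of 5.21 to 79.9. In the middle of the gene, 2 circles began at exon 9 (position 69633577) and had 40 reads in the hippocampus against 23 in the frontal cortex, and 8 circles that ended at exon 8 (position 69564684) had 46 and 25.

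*Satb1* encodes a protein that binds matrix attachment regions and folds chromatin, and it is needed for the maturation of cortical interneurons. Circular reads per 10000 of *Satb1* were 7.48, 13.7 and 24.7 in the hippocampus against 0, 9.12 and 15.7 in the frontal cortex. The sample at 0 was frontal cortex ZT9 replicate 3, 7 hippocampus samples lay above the highest frontal cortex sample, and 17 lay above its median. The means were 15.4 ± 5.24 and 9.28 ± 3.90 (SD, n = 18 each), a 1.61-fold difference (log2 0.68, SE 0.18, adjusted p-value = 0.00270), and the hippocampus mean was higher at 5 of 6 time points. The exception was ZT13, with 9.69 ± 2.40 in the hippocampus against 11.8 ± 3.83 in the frontal cortex. The other hippocampus groups had means between 14.7 ± 5.60 and 18.4 ± 5.14, and the other frontal cortex groups between 6.56 ± 6.23 and 10.8 ± 2.64.

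Of the 8 circRNAs of *Satb1*, a circle of exons 2 to 9 (chr17:51767892-51809287, minus strand, 1609 bases) had 367 reads in the hippocampus against 222 in the frontal cortex. Its circular reads per 10000 were 3.74, 10.6 and 16.8 in the hippocampus against 0, 7.83 and 14.4 in the frontal cortex, with 13 hippocampus samples above the frontal cortex median. The difference was not called (log2 0.45, SE 0.19, adjusted p-value = 0.0769). It was called by DESeq2 (0.55, adjusted p-value = 0.0307), within a range of 0.0307 to 0.307 over the alternatives. It was also called without any 1 of 8 libraries, namely hippocampus ZT1 replicate 2 (adjusted p-value = 0.0472), ZT5 replicate 3 (0.0497), ZT9 replicate 2 (0.0337), ZT13 replicate 3 (0.0383), ZT17 replicate 3 (0.0392) and ZT21 replicate 2 (0.0499), and frontal cortex ZT1 replicate 2 (0.0293) and ZT9 replicate 1 (0.0391).

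*Foxp1* encodes a forkhead repressor of projection neurons in the cortex, striatum and hippocampus. The samples held *Foxp1* at circular reads per 10000 of 0, 8.77 and 14.5 in the hippocampus against 6.28, 12.6 and 19.5 in the frontal cortex. Here the frontal cortex was higher, with 5 of its samples above the highest hippocampus sample and 14 of 18 above the hippocampus median, and the only sample at 0 was in the hippocampus at ZT13. The means were 8.27 ± 3.70 and 12.4 ± 3.84 (SD, n = 18 each), 1.49-fold higher in the frontal cortex (log2 −0.58, SE 0.19, adjusted p-value = 0.0150), and the frontal cortex mean was higher at 6 of 6 time points. All 6 frontal cortex groups, from 14.4 ± 5.61 at ZT1 to 10.9 ± 4.17 at ZT5, stood before all 6 hippocampus groups, from 9.91 ± 4.76 at ZT17 to 4.98 ± 5.72 at ZT13, and neighbours differed by less than the larger SD. Without frontal cortex ZT1 replicate 1 the log2 difference was −0.50 and no longer called (adjusted p-value = 0.0507). The adjusted p-value was 0.132 without a filter on low counts and 0.0702 with circRNAs listed in both tables, within a range of 0.00601 to 0.132 over the alternatives.

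*Foxp1* held 36 circRNAs, and 42 of the 6520 host genes (0.644%) held more. Of the 36, 20 lay also inside *Gm20696*, an overlapping gene annotation on the same strand, and these 20 had 236 of the 287 hippocampus reads and 275 of the 350 frontal cortex reads. The 16 circles inside *Foxp1* alone had 51 and 75 reads, which was too few for the filter on low counts when they were counted alone. The leading circle (chr6:99428789-99435345, minus strand) had 1 end at an exon, with 59 reads in the hippocampus against 65 in the frontal cortex.

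*Tle4* encodes a corepressor of the Groucho family, which binds no DNA itself and is recruited by other factors. Circular reads per 10000 of *Tle4* were 0, 5.25 and 14.2 in the hippocampus against 0, 6.30 and 15.6 in the frontal cortex. The tissues overlapped over nearly their whole range, with 7 of 18 hippocampus samples above the frontal cortex median, and the hippocampus mean was higher at 2 of 6 time points. The difference was not called (log2 0.10, SE 0.34, adjusted p-value = 0.852), and its sign turned on single libraries. It was −0.23 without hippocampus ZT21 replicate 2, −0.09 without hippocampus ZT13 replicate 2 and 0.88 without frontal cortex ZT1 replicate 1. Its 3 circRNAs were led by a circle of exons 5 to 8 (chr19:14516359-14564451, minus strand, 357 bases) with 149 reads in the hippocampus against 110 in the frontal cortex (log2 0.09, SE 0.43, adjusted p-value = 0.923). For this circle the log2 difference fell to −0.68 without hippocampus ZT13 replicate 2, to −0.63 without hippocampus ZT21 replicate 2, and to −0.0043 and −0.0039 without frontal cortex ZT1 replicate 3 and ZT13 replicate 2.

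Single circles of the 9 genes had few reads. Of the 94, 42 were listed in both tables, 38 in the hippocampus table alone and 14 in the frontal cortex table alone. The same split over all circRNAs is not given here, and the hippocampus had more circular reads inside genes (419889 against 350840). The 38 and 14 are thus not read as a trait of these genes. Of the 94, 43 were found in 1 sample. At least 2 replicates of a time point held 33 of them, and 6470 of all 29473 circRNAs inside genes. Only 3 were tested singly, the leading circles of *Zbtb20*, *Satb1* and *Tle4* described above. A filter on the total, at least 72 reads over the 36 samples, let 13 circles of 7 of the genes be tested among 1830 circRNAs. Of the 1830, 17.3% were called, 10.2% higher in the hippocampus, and 7.10% higher in the frontal cortex. This filter sums raw reads, of which the hippocampus had more, so a circle could pass mainly through its hippocampus reads. Of the circRNAs called, 58.9% were higher in the hippocampus with this filter and 53.9% with the filter by edgeR. In this fit 4 of the 13 were called, all higher in the hippocampus, and their values follow.

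The circle of *Zbtb20* exons 2 to 5 was called here too (adjusted p-value = 8.81e-11, 3.44-fold). The circle of *Satb1* exons 2 to 5 (chr17:51803431-51809287) had 70 reads in 17 hippocampus samples and 20 reads in 6 frontal cortex samples, with means of 2.25 ± 1.21 and 0.631 ± 1.13 (SD, n = 18 each, adjusted p-value = 0.00383). It was found in nearly every hippocampus sample and was at 0 in most frontal cortex samples. The circle of *Nfib* exons 3 to 6 (chr4:82350389-82383661) had 76 reads in 16 hippocampus samples and 34 in 9 frontal cortex samples, with means of 2.25 ± 1.17 and 1.06 ± 1.35 (adjusted p-value = 0.0330). The circle of *Bcl11b* exon 2 had means of 3.42 ± 1.72 and 1.56 ± 1.45 (adjusted p-value = 0.0405), with 17 of 18 hippocampus samples above the frontal cortex median. The circles of *Satb1* exons 2 to 9 (adjusted p-value = 0.0536), *Tcf4* (0.0855) and *Foxp1* (4 circles, the smallest 0.186) were not called, nor were the other circles of *Nfib* and *Tle4*.

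Circles of 1 gene can differ between the tissues to unlike degrees. In the fit of singly tested circRNAs, 12 of 119 genes with at least 2 circles (10.1%) were called for unequal use, and none of the 9 genes had the 2 circles this test needs. The count was 14 to 19 without any 1 library, with 19 without frontal cortex ZT5 replicate 3, ZT13 replicate 1 or ZT13 replicate 3, or hippocampus ZT13 replicate 1. With the filter of 72 reads, 21 of 382 genes (5.50%) were called. *Satb1*, with its circles of exons 2 to 5 and 2 to 9, had an adjusted p-value of 0.0515, *Nfib* with 3 circles 0.261 and *Foxp1* with 4 circles 0.630. The medians of *Satb1* were 2.29 in the hippocampus against 0 in the frontal cortex for exons 2 to 5, and 10.6 against 7.83 for exons 2 to 9. For *Nfib*, the circle of exons 3 to 6 was higher in the hippocampus while the circles of exons 2 to 8 and 2 to 6 were not called, and unequal use was not called.

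**Figure D2:**
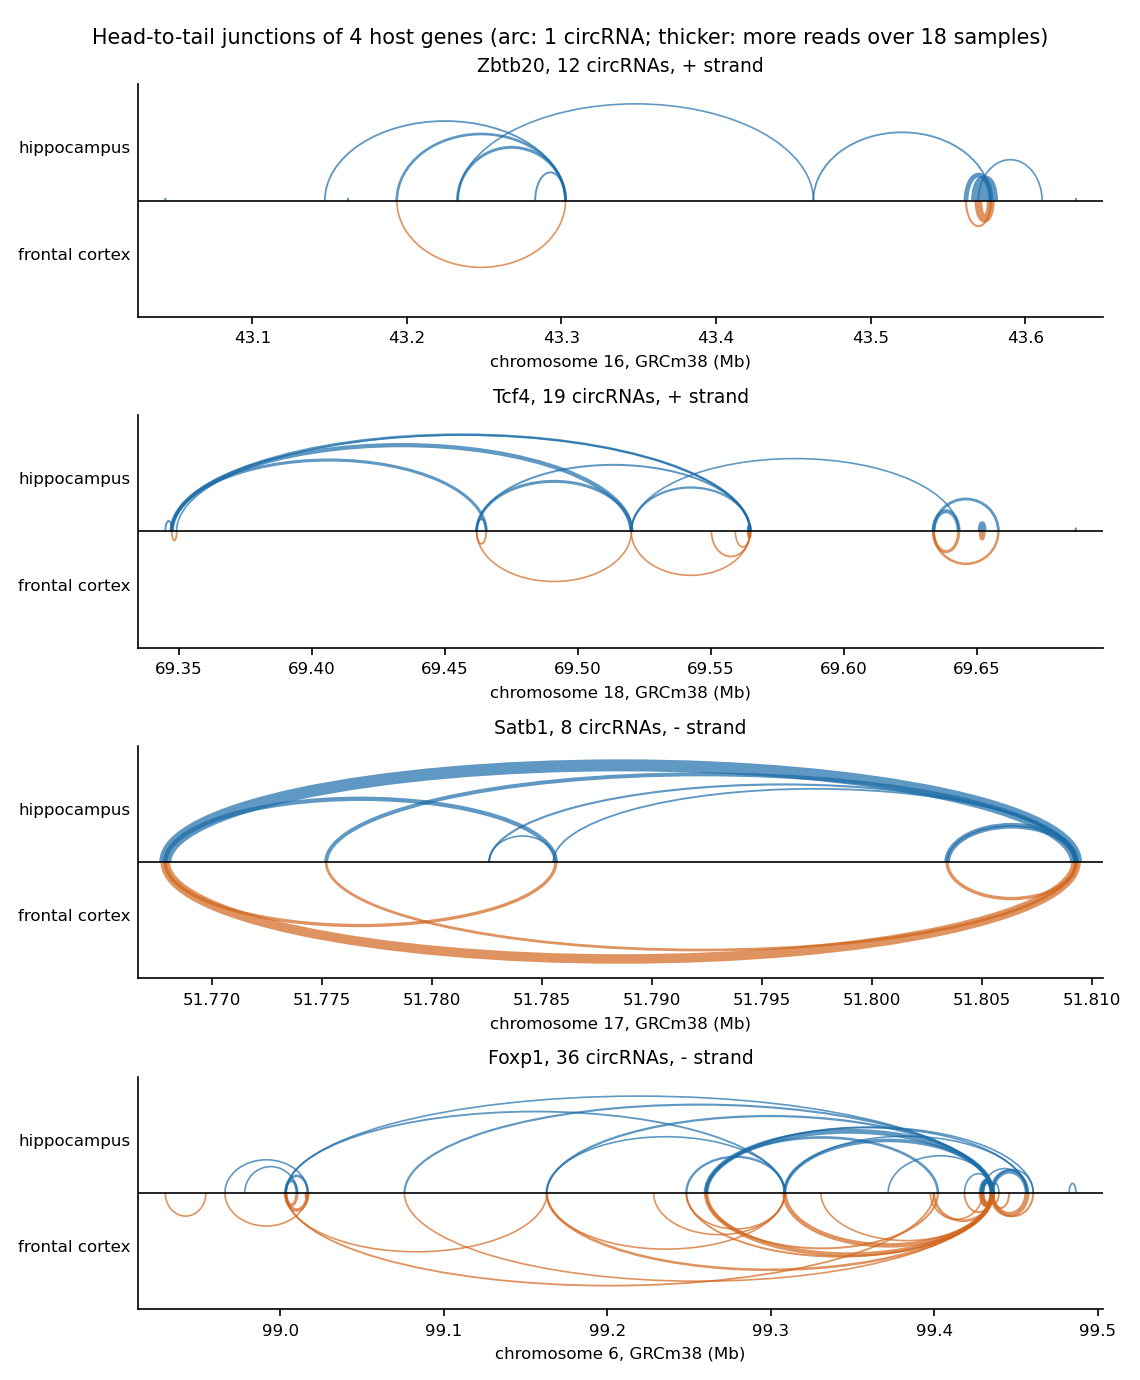
Head-to-tail junctions of *Zbtb20*, *Tcf4*, *Satb1* and *Foxp1* along the chromosome in Mb (GRCm38), with arcs of the hippocampus above and of the frontal cortex below the line, drawn thicker with more reads over 18 samples. The 5′ arcs of *Zbtb20* and the arcs from exon 2 of *Tcf4* are drawn mostly on the hippocampus side, and many arcs of *Foxp1* meet at 1 exon end in both tissues.

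Some circles of the same gene shared a splice site, and examples are given. In *Foxp1*, 12 circles shared the acceptor of exon 2 (chr6 position 99435345), with 184 reads in the hippocampus against 220 in the frontal cortex. In *Satb1*, 5 circles shared the acceptor of exon 2 (chr17 position 51809287), with 474 and 253 reads. In *Nfib*, 4 circles shared the acceptor of exon 2 (chr4 position 82498769), with 155 and 129 reads, and 3 shared that of exon 3 (position 82383661), with 90 and 50. For *Tle4*, 2 circles shared the acceptor of exon 5 (chr19 position 14564451), with 180 and 141 reads. The donor of *Zbtb20* exon 5 (chr16 position 43577748) was used by 3 circles, with 588 and 141 reads.

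Of the 94 circles, 58 (61.7%) had both ends at exons of 1 transcript, 24 had 1 such end, 3 joined exons of different transcripts and 9 had none. Among all 29473 circRNAs inside genes, 70.1% had both ends at exons of 1 transcript. Of the 58, 23 began at exon 2 (39.7%), where the share over all host genes was 26.0%. Their median length after splicing was 482.5 bases, from 82 to 2116, where all host genes had a median of 606. Of the 33 circles that consisted only of coding sequence, 19 (57.6%) held a whole number of codons, where all host genes had 39.5%. Since circles of 1 gene share exons, these shares are descriptions and were not tested.

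The junctions below show what the counted reads of 1 circle cross in each of 7 genes, the circle with the most reads among those made only of coding sequence. *Zbtb20* had no such circle, and no sequence of *Tcf4* is printed. The circles shown had 54 reads for *Satb1* and 32 for *Foxp1*, while the leading circles of these genes, with other junctions, had 589 and 124. Each junction is written 5′ to 3′ on the strand of the gene from GENCODE M21 transcripts (GRCm38). The last 15 bases of the circle before the junction are in lower case and the first 15 bases after it in capitals. The circles are *Satb1* exons 6 to 9 (chr17:51767892-51785640, minus strand), *Tle4* exons 5 to 8 (chr19:14516359-14564451, minus), *Foxp1* exons 5 to 8 (chr6:99003200-99016665, minus), *Bcl11a* exon 2 (chr11:24085321-24085650, plus), *Bcl11b* exon 2 (chr12:107989465-107989830, minus), *Nfia* exons 2 to 6 (chr4:97783082-98020954, plus) and *Nfib* exons 2 to 8 (chr4:82327729-82498769, minus).
Satb1: gccacaaaaagccagAGCATGATCTCCTCC
Tle4: agagactccatcaagGCAGAGATTGTTAAA
Foxp1: tcccaaaagggaaagGTTCCCGTGTCAGTG
Bcl11a: aggaacacatagcagCCGAACCTCTTGAAG
Bcl11b: aggagaacattgcagCAGAGGCTGACCATG
Nfia: atgaagtagagccagGATGAGTTTCATCCT
Nfib: cctcaaacgagccagGATGAATTCCACCCA

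Junctions of paralogous genes were compared base by base. *Bcl11a* and *Bcl11b* each circularized exon 2, and their junctions had the same base at 12 of 15 positions before the junction and at 7 of 15 after it. *Nfia*, whose circle had 5 reads in 2 samples, and *Nfib* both began their leading circles at exon 2, with the same base at 8 of 15 positions before the junction, where the circles end at different exons, and at 11 of 15 after it.

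The study sampled the light-dark cycle, and the 7 tested genes were compared between the dark and the light phase within each tissue. With edgeR, 0 of 790 host genes (0%) were called in the hippocampus, where 23 had an unadjusted p under 0.05, and 0 (0%) in the frontal cortex, where 40 did. A test of whether dark minus light differed between the tissues also called 0 (0%), with 40 under 0.05, and DESeq2 called 0 in each of these 3 comparisons. For any difference over the 6 time points, 0 genes (0%) were called in the hippocampus, with 16 under 0.05. In the frontal cortex 1 gene (0.127%), *Ptms*, was called, with 31 under 0.05. These counts changed without single libraries, to 3 for the phase in the frontal cortex without its ZT5 replicate 2. In the hippocampus, the count for time points rose to 1 without hippocampus ZT9 replicate 3, hippocampus ZT17 replicate 3 or frontal cortex ZT17 replicate 3. In the frontal cortex, it was 0 without its ZT9 replicate 3 and 2 without its ZT17 replicate 3. With the replicate number as a block it was 0 in each tissue, and unfiltered counts gave 7 (hippocampus) and 8 (frontal cortex).

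None of the 7 genes was called in these 5 comparisons under any alternative, where the smallest adjusted p-value was 0.427. Their log2 differences, dark minus light, were between −0.89 and 0.21 in the hippocampus, and between −0.12 and 0.71 in the frontal cortex. Only *Tle4* had an unadjusted p under 0.05, for the difference between the tissues. In the hippocampus *Tle4* was at 3.27, 7.18 and 14.2 (lowest, median, highest of 9 samples) in the light phase and at 0, 4.68 and 7.45 in the dark phase. In the frontal cortex it was at 0, 5.08 and 15.6 in the light and at 1.23, 7.61 and 10.1 in the dark phase. The medians moved in opposite directions and the ranges overlapped in both tissues. By edgeR the difference between the tissues was −1.60 on the log2 scale (SE 0.69) and failed the correction (adjusted p-value = 0.870).

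*Zbtb20* differed little between the phases, with means of 17.6 ± 3.38 (SD, n = 9) in the light and 18.5 ± 7.03 in the dark phase of the hippocampus, and of 4.84 ± 3.26 and 4.75 ± 1.45 in the frontal cortex. *Tcf4* had means of 6.69 ± 2.47 and 6.35 ± 2.93 in the hippocampus against 1.85 ± 2.45 and 3.36 ± 1.84 in the frontal cortex. *Satb1* had 16.6 ± 5.42 and 14.1 ± 5.02 in the hippocampus against 8.02 ± 4.47 and 10.5 ± 2.95 in the frontal cortex. Each of these differences was smaller than the larger SD of its phases.

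**Figure D3:**
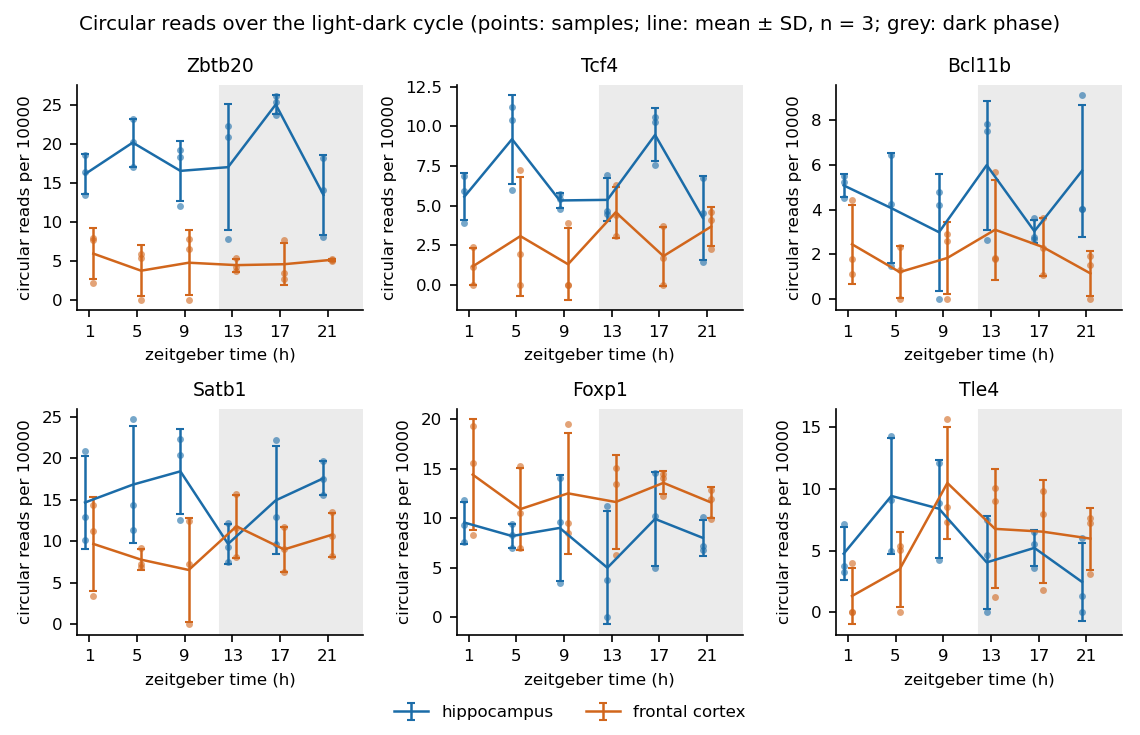
Circular reads per 10000 of 6 host genes against zeitgeber time in hours, with points for samples, lines for the mean ± SD of 3 replicates and grey for the dark phase. The hippocampus mean of *Zbtb20* lies above that of the frontal cortex at 6 of 6 time points, and the means of *Tle4* cross.

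Among the members, levels across samples moved together to unlike degrees. Pearson's r of log2 levels over the 36 samples, which share tissue, time point and depth, ran from −0.43 for *Foxp1* and *Bcl11b* to 0.59 for *Satb1* and *Zbtb20*. The host genes most like *Zbtb20* over 36 samples were *Pip5k1b* (r = 0.84), *Arhgap12* (0.82) and *Tshz2* (0.79). Their r was 0.32, 0.34 and 0.05 within the 18 hippocampus samples and 0.59, 0.42 and 0.49 within the 18 frontal cortex samples. Most like *Tcf4* were *Ahcyl2* (0.72), *Crebrf* (0.67) and *Rfx3* (0.67), with −0.19, 0.33 and 0.23 within the hippocampus against 0.63, 0.47 and 0.49 within the frontal cortex. Most like *Bcl11b* were *Dscam* (0.72), *Erbb4* (0.64) and *Elf2* (0.63), with 0.32, 0.55 and 0.63 against 0.77, 0.72 and 0.32.

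For *Satb1* the most similar genes were *Zzz3* (r = 0.79), *Rprd1b* (0.75) and *Rlf* (0.74), with 0.56, −0.06 and 0.17 within the hippocampus against 0.79, 0.85 and 0.80 within the frontal cortex. For *Nfib* they were *Arhgap5* (0.79), *Cdk13* (0.67) and *Dennd2a* (0.66), with 0.48, −0.10 and 0.56 against 0.84, 0.82 and 0.67. For *Foxp1* they were *Cntn5* (0.69), *Kcnt2* (0.67) and *Tmem161b* (0.66), with 0.67, 0.87 and 0.75 against 0.24, −0.55 and 0.19. *Tle4* was most like *Mga* (0.62), *Ubr3* (0.47) and *Gnptg* (0.46), with 0.56, 0.44 and 0.42 against 0.67, 0.52 and 0.49. Libraries with few reads hold several genes at 0 at the same time, and the part of depth in these values was not tested.

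Of 18 family relatives of the 9 genes, 10 held a circRNA and 3 were tested, with 1 called higher in the hippocampus, 1 called higher in the frontal cortex and a median log2 difference of 0.29, where that of all 790 host genes tested was 0.03. Of the 790, 31.6% were called, 16.3% higher in the hippocampus, and 15.3% higher in the frontal cortex, for comparison with the counts of each list. *Nfix*, a nuclear factor I gene like *Nfia* and *Nfib*, was at 40.6, 49.0 and 57.5 in the hippocampus against 14.2, 24.1 and 33.5 in the frontal cortex. All 18 hippocampus samples lay above the highest frontal cortex sample (log2 1.03, SE 0.09, adjusted p-value = 8.06e-13).

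Of 92 other transcription factors of regions and layers, 54 held a circRNA and 14 were tested, with 5 called in each direction and a median of 0.22. Called higher in the hippocampus were *Glis3* (9.57, 19.3 and 24.8 against 0, 1.18 and 5.81 in the frontal cortex), *Tshz2* (6.34, 11.5 and 17.2 against 0, 3.30 and 5.91), *Prox1* (medians of 5.09 against 0) and *Rfx3* (6.73, 24.8 and 33.6 against 0, 9.15 and 17.2), by smallest p. Higher in the frontal cortex were *Thrb* (1.36, 4.80 and 12.1 in the hippocampus against 7.55, 11.7 and 17.03), *Tox* (0, 4.56 and 9.55 against 4.44, 11.3 and 16.4), *Hivep1* (0, 1.59 and 5.89 against 0, 5.85 and 10.4) and *Meis2* (0, 0.634 and 6.74 against 0, 5.12 and 7.77). The tissues did not overlap for *Glis3* and *Tshz2* and overlapped for the others. Of 35 subunits of the BAF and NuRD complexes, with which *Bcl11a* and *Bcl11b* act, 29 held a circRNA and 4 were tested. There *Pbrm1* was higher in the hippocampus (0.77, adjusted p-value = 0.0181, 16 of 18 samples above the frontal cortex median), *Smarca2* (−1.65, adjusted p-value = 0.00135) and *Arid1a* (−0.45, adjusted p-value = 0.0157) were higher in the frontal cortex in 18 and 15 of 18 samples above the hippocampus median, and the median was −0.003.

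Circular reads of cell type markers, whose sums were not tested, are given summed per sample (lowest, median, highest, per 10000). Of 14 markers of hippocampal neurons, 7 held a circRNA, led by *Prox1*, and their sum was 0, 10.3 and 20.2 in the hippocampus against 0, 3.27 and 7.23 in the frontal cortex. *Dsp*, *C1ql2*, *Lct* and *Spink8* were among the 7 without a circRNA. Of 15 markers of cortical projection neurons, 7 held a circRNA, and their sum was 7.90, 13.5 and 19.2 against 5.51, 12.6 and 17.5. Of these markers 2 were tested, with 1 called higher in each tissue. The gene with the most reads there, *Tshz2*, was the one called higher in the hippocampus, and *Rorb* and *Fezf2* held no circRNA. The labelled tissues thus differed in *Prox1* circRNAs, while many defining markers gave no circular read.

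The frontal lobes were also checked for striatal neurons, in which *Foxp1* and *Bcl11b* are known to be expressed. Of 18 markers, 9 held a circRNA, led by *Ano3*, with a sum of 4.71, 8.72 and 14.2 in the hippocampus against 2.60, 15.0 and 22.0 in the frontal cortex, and *Drd1*, *Drd2*, *Adora2a* and *Tac1* were among those that held none. *Meis2*, itself called higher in the frontal cortex, had 45 of the 316 hippocampus reads and 137 of the 449 frontal cortex reads. Inhibitory interneurons (6 of 12 markers, led by *Erbb4*, with *Slc32a1*, *Sst*, *Pvalb* and *Vip* at 0) had sums of 1.36, 7.31 and 15.3 against 0, 3.30 and 7.49. Astrocytes (8 of 13, led by *Slc4a4*, with *Gfap* and *Aqp4* at 0) had 0, 6.34 and 10.8 against 0, 2.77 and 9.22. Oligodendrocytes (9 of 14, led by *Bcas1*, with *Mog* and *Mag* at 0) had 0, 4.61 and 11.5 against 0, 2.93 and 9.45. The medians of the interneuron, astrocyte and oligodendrocyte sums were higher in the hippocampus, as were those of hippocampal and cortical projection neurons. The median of the striatal sum was higher in the frontal cortex. Of the genes named above with striatal neurons, *Foxp1* was called higher in the frontal cortex and *Bcl11b* higher in the hippocampus.

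Oligodendrocyte precursors (2 of 7, led by *Ptprz1*, with *Pdgfra* and *Cspg4* at 0) had medians of 0 in both tissues and 1.45 as their highest value. Microglia (1 of 9, *Inpp5d*, with *Cx3cr1*, *Csf1r* and *P2ry12* at 0) had 2 reads in 1 frontal cortex sample, and choroid plexus (1 of 7, *Htr2c*, with *Ttr* and *Folr1* at 0) had 11 reads in 3 hippocampus samples. For all of these lists, their part in the results for the 9 genes was not tested.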

How the data were processed

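Total RNA of 18 hippocampus and 18 frontal cortex samples was analysed. The deposited values are counts of head-to-tail junction reads per circRNA and sample, made by the authors with BWA 0.7.17-r1188 (-T 19) and CIRI2 at default parameters on GRCm38, without normalization. For the hippocampus, 1 further column without a sample of its own in the labels, H7_3d, was not used. Of its 2817 circRNAs, 2811 were also in column H7_3, which is hippocampus ZT1 replicate 3 (99.8%, against 64.6% to 72.8% of those in the other 17 columns), and 6 had more reads than there. The tables were joined by position and strand, with 0 for circRNAs not listed. Reads of all circRNAs with both ends inside a gene (GENCODE M21) were summed, each circRNA going to 1 gene (protein-coding genes first, then the longest).

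Genes, and circRNAs found in at least 2 replicates of a time point, were filtered with filterByExpr and tested in R 4.3.3 by edgeR 4.0.16 (12 groups, TMM, quasi-likelihood test, diffSpliceDGE for use of circles, Benjamini-Hochberg adjustment over all tested, threshold 0.05). The alternatives were other scalings, filters, designs and sets of circRNAs, DESeq2 1.42.0, replicate blocks, and leaving out each sample or 3 libraries. The use of circRNAs inside 1 gene only was chosen after seeing the data. Python 3.11.15, numpy 2.4.6, pandas 2.3.3 and matplotlib 3.10.9 were used. The test was tested on simulated data. Sequenced read totals and linear RNA were not used here.

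The members and lists were chosen with earlier results of these data known. Named are all 9 genes, the circle of each with the most reads and up to 3 more past the threshold, the 3 most correlated host genes, and up to 4 list genes per direction by smallest p, with exceptions stated in the text. Single values of 3 genes of the lists are not reported here.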

Additional observations from a re-analysis of the deposited data

Results flagged for a closer look

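Total circular reads were compared among the 9 samples of a tissue and phase, and 2 samples lay far from the others of their set. Hippocampus ZT1 replicate 3 had 73252 circular reads, and the other 8 light-phase samples of the hippocampus had between 16463 and 29951. Hippocampus ZT13 replicate 1 had 6754, and the other dark-phase samples of the hippocampus had between 16740 and 25564. Of 32 sets of 9 samples looked at, chance marks about 1 in 20. None of the levels of the 7 host genes tested held a sample this far from the others, and *Bcl11a* and *Nfia*, with few reads, were not looked at in this way. The results without these libraries are given in the report.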

How the results depend on the processing

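*Zbtb20* (log2 1.80 to 1.94), *Bcl11b* (1.07 to 1.23) and *Satb1* (0.65 to 0.76) kept their direction and call under 11 alternatives and without any 1 library (1.78 to 1.96, 1.07 to 1.29 and 0.63 to 0.82), as did the *Zbtb20* circle of exons 2 to 5 under 8 (1.68 to 1.86; 1.66 to 1.90). *Nfib* stayed uncalled (0.23 to 0.38; 0.24 to 0.45). *Foxp1* lost its call without a filter on low counts (−0.53), with circRNAs listed in both tables (−0.46) and without the 3 libraries of most and fewest reads (−0.42), ranged from −0.73 to −0.49 without 1 library (call lost without frontal cortex ZT1 replicate 1), and was below the filter with circRNAs inside 1 gene only. *Tcf4* lost its call with circRNAs listed in both tables (0.90), which drops circles found in 1 tissue, and ranged from 1.25 to 2.12 without 1 library. The *Satb1* circle of exons 2 to 9 was called by DESeq2 (0.55), and ranged from 0.39 to 0.55 without 1 library. *Tle4* ranged from −0.23 to 0.88 and its circle from −0.68 to 0.86, reversed without hippocampus ZT13 replicate 2 (−0.09; −0.68) or ZT21 replicate 2 (−0.23; −0.63), and the circle also without frontal cortex ZT1 replicate 3 (−0.0043) or ZT13 replicate 2 (−0.0039).

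Calls between the tissues numbered 219 to 323 for genes (237 to 270 without 1 library) and 187 to 351 for circRNAs (212 to 245), with the most by DESeq2 (351 circRNAs, against 217), which also used another filter, on 6656 circRNAs and 6520 genes against 710 and 790. With the time point and replicate number as a block, 219 genes and 187 circRNAs were called, although levels of same-numbered samples of the tissues correlated only from −0.107 to 0.0712 over 18 pairs. Without a filter, 2 genes were called for the phase in the hippocampus, 2 for the difference between the tissues, and 7 and 8 for the time points in the hippocampus and frontal cortex. The replicate block gave 0 for the last. Without 1 library the phase in the frontal cortex gave 0 to 3, the time points 0 to 1 and 0 to 2, and the use of circles 14 to 19 (21 with the filter of 72 reads, against 12). Leaving out a library brings its group to 2 samples, which lets more circRNAs pass the filter. Where no construction shows it, the cause was not tested.

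Depth limits the single circles. Of the 94 circles of the 9 genes, 43 were found in 1 sample and 3 were tested singly, and counts of 1 read are not listed. TMM scaling rests on circular reads alone, so a change shared by all circRNAs would not be seen, and linear RNA of the host genes was not analysed here. Whether samples of the tissues with the same replicate number came from the same animals is not stated in the labels.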
